A study of Drosophila melanogaster with 9 samples.

Results

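The genes described here encode the proteins of the mitochondrial ribosome. They were chosen by name: a gene was a member if its symbol, or a listed synonym of it, began with *mRpL* (large subunit) or *mRpS* (small subunit). The naming rule itself used no measured value, although it was set with earlier results of these data known. The probe set for each gene was chosen by its mean log2 value. The reference table listed 76 such genes, and 72 of them had a probe set of their own on the array, out of 11981 genes measured in the series. Of the 72, 69 were found by symbol and 3 by synonym, namely *tko* (mRpS12), *bonsai* (mRpS15) and *CG4866* (mRpS4). By the L or S in their names, the 72 comprised 44 large subunit and 28 small subunit genes. The 4 genes not among them were *mRpS10* and *mRpL53*, whose probe sets were annotated to another gene as well, and *mRpL34* and *mRpL37*, for which no probe set was listed.

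Affymetrix arrays measured RNA from whole testes of *Drosophila melanogaster* in 3 genotypes, with 3 arrays each. Control testes came from w; tinRNAi/+; bamGal4VP16/+ males, in which the bam promoter drives an RNAi transgene against *tin* in male germ cells and spermatogenesis is normal. The aly testes came from aly[5] red[1] e[1] males, which lack a component of the testis meiotic arrest complex that activates transcription in primary spermatocytes. The Nxt1 testes came from w; Nxt1[z2-0488]/Nxt1[DG05102] males, which carry an amino acid substitution over a P-element insertion in a co-factor of mRNA export and so keep part of the gene's function. All flies were newly eclosed males, and testes of many animals were pooled by hand dissection. Control flies were raised at 29 °C, while aly flies were raised at 27 °C and Nxt1 flies at 25 °C, so that temperature and genotype cannot be told apart, and neither can the occasion on which the Nxt1 arrays were run. Both mutants arrest as mature primary spermatocytes and lack the spermatids that fill a control testis. In RNA from whole testes, fewer cells of a type and less RNA per cell cannot be told apart.

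Mitochondria carry their own genome, which encodes a few subunits of the respiratory chain, and translate it on ribosomes of their own. The ribosomal RNAs are made inside the organelle, but every protein of the mitochondrial ribosome is encoded in the nucleus, translated in the cytoplasm and imported. The small subunit reads the mRNA, while the large subunit joins amino acids and passes the growing chain through an exit tunnel towards the inner membrane. Many of the proteins have counterparts in the bacterial ribosome, and the rest were added in the history of mitochondria. Mitochondria are reshaped at length in the male germ line of flies, where they fuse into the nebenkern of the early spermatid and later run along the sperm tail.

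Signals below are the deposited values on a linear scale, and differences are on the log2 scale with the standard error of the limma fit. A gene was called where limma gave an adjusted p under 0.05 over all 18769 probe sets. Whether the 3 arrays of a genotype came from separate cultures is not stated, so p-values measure the spread between these arrays only. That spread was small, since the median SD over the members was 0.06 on the log2 scale in control, 0.14 in aly and 0.05 in Nxt1, against 0.09, 0.16 and 0.09 over all probe sets. With 3 arrays against 3, an exact permutation test of a single gene could not go below p = 0.1.

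The first comparison asked how these transcripts differed between Nxt1 and control testes. Nearly all of them were higher in Nxt1. Of the 72 members, 68 rose, 1 fell (*mRpL51*) and 3 were not called (*mRpS14*, *mRpS21* and *mRpS33*), where 34.1% of all probe sets rose and 24.2% fell. The median difference was 1.31, with quartiles of 0.86 and 1.68, against -0.01 over all probe sets. The summed signal of the members was between 185361 and 194704 in the Nxt1 arrays and between 81240 and 82143 in the control arrays. For 70 members every Nxt1 array was above every control array (37.1% of all probe sets), for *mRpL51* every Nxt1 array was below (32.1%), and for *mRpS21* the arrays overlapped. A called rise of at least 2-fold was found for 49 members, against 18.4% of all probe sets. Counted like the members, with 1 probe set per gene, 44.3% of 11981 genes rose and 26.5% fell, with a median of 0.16. Of these genes, 2927 had a called rise of at least 2-fold.

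The second comparison set aly against control. All 72 members rose (44.0% of all probe sets did so, and 20.0% fell), and in all 72 every aly array was above every control array (46.0% of all probe sets, with 20.8% below). The median difference was 1.58, with quartiles of 1.17 and 2.03 and a range from 0.25 to 3.03, against 0.21 over all probe sets. The summed signal was between 219278 and 252242. The rise was at least 2-fold for 58 members, against 21.9% of all probe sets. With 1 probe set per gene, 49.75% of 11981 genes rose and 24.98% fell, with a median of 0.31. Of these genes, 3458 had a called rise of at least 2-fold. Both comparisons used the same 3 control arrays, so they are not independent of each other.

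**Figure D1:**
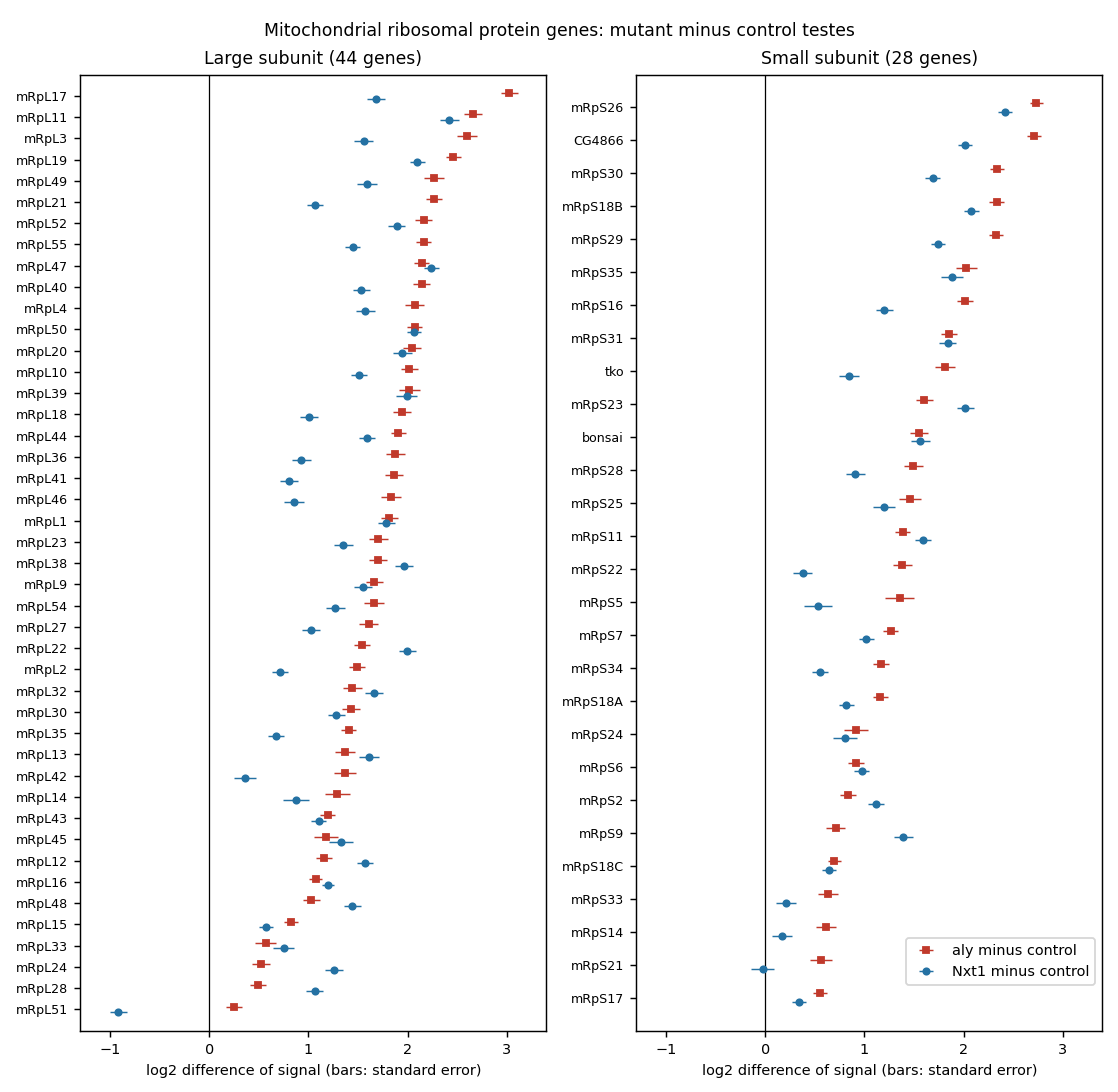
Log2 difference from control for each of the 72 members in aly and in Nxt1 (x axis, error bars 1 SE of the limma fit, 3 arrays per genotype), with large subunit genes in one panel and small subunit genes in the other (y axis, gene). On the deposited scale every point lies above 0 except those of *mRpL51* and *mRpS21* in Nxt1.

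These counts depend on the scale of the arrays. The 47 probe sets of cytoplasmic ribosomal proteins were themselves higher in the mutants. Their median on each array, averaged over the arrays of a genotype, was above control by 1.13 in Nxt1 and 1.22 in aly. When each array was centred on them, 35 members were called higher and 20 lower in Nxt1, with a median of 0.18, and 44 higher and 15 lower in aly, with a median of 0.36. On that scale 87.4% of all calls in Nxt1 and 85.4% in aly were lower, against 41.5% and 31.3% as deposited, and the medians over all probe sets were -1.14 and -1.01. The study used *CG3927* as its q-RT-PCR control, and described it as expressed only in primary spermatocytes. The study also gave its level as near wild type in Nxt1 mutants and in mutants of *comr*, another gene of the complex that holds aly. On the deposited scale *CG3927* was higher by 0.775 in Nxt1 and 1.14 in aly. When each array was centred on *CG3927*, 49 members were higher and 8 lower in Nxt1, and 48 higher and 13 lower in aly. On that scale 80.4% and 83.8% of all calls were lower. The rises given below are on the deposited scale. Subtracting 1.13 (Nxt1) or 1.22 (aly) from a difference gives it relative to the cytoplasmic ribosomal proteins.

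The third comparison set the mutants against each other. Its differences used no control signal, but its calls did use the control arrays, since the spread was estimated over all 9 arrays. Nxt1 was the lower of the pair for most members. In Nxt1, 41 members were lower than in aly (38.5% of all probe sets), 10 were higher (20.6%) and 21 were not called, with a median difference of -0.30 against -0.18 over all probe sets. The share of members called lower was thus above the background and the share called higher was below it. With 1 probe set per gene, 36.7% of genes were lower and 27.0% higher, with a median of -0.13. Every Nxt1 array was below every aly array for 43 members (42.3% of all probe sets) and above for 13 (22.0%). The split held when the arrays were centred on cytoplasmic ribosomal proteins, with 14 higher and 36 lower. There 22.6% of all probe sets were higher and 27.8% lower, and 55.1% of all calls were lower. Centred on *CG3927*, 27 members were higher and 24 lower, against 37.1% and 13.4% of all probe sets. The members' median of 0.066 was below that of all probe sets (0.18). On that scale 26.5% of all calls were lower, against 65.1% as deposited. The 10 higher members were *mRpL12*, *mRpL22*, *mRpL24*, *mRpL28*, *mRpL38*, *mRpL48*, *mRpS2*, *mRpS9*, *mRpS11* and *mRpS23*.

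**Figure D2:**
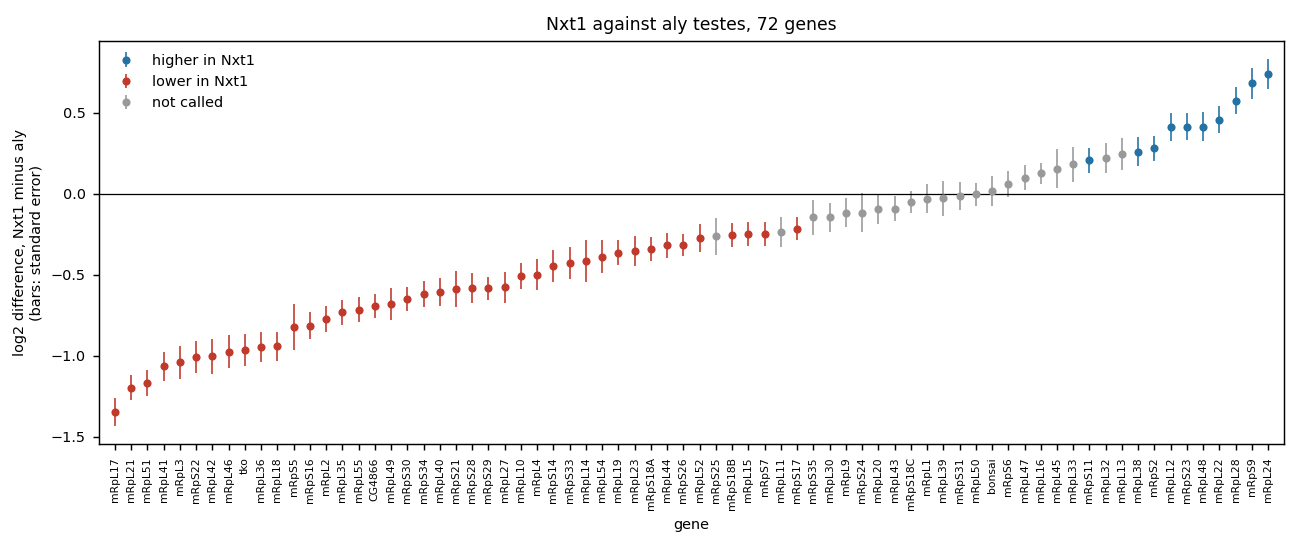
Log2 difference between Nxt1 and aly (y axis, error bars 1 SE of the limma fit) for the 72 members in order of their value (x axis), coloured by call. On the deposited scale the values run from -1.35 for *mRpL17* to 0.74 for *mRpL24*, with 41 members called lower, 10 higher and 21 not called.

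The small subunit holds the decoding centre. *tko* encodes its S12 protein, which lies beside the codon being read, and flies with a weak *tko* allele are bang sensitive. The *tko* signal was 842, 932 and 854 in control, 2681, 3409 and 3154 in aly, and 1487, 1598 and 1630 in Nxt1. The 3 genotypes did not overlap, and Nxt1 lay between the others. The difference from control was 1.81 ± 0.10 in aly (adjusted p = 7.22e-08) and 0.84 ± 0.10 in Nxt1 (adjusted p = 3.61e-05), and Nxt1 was lower than aly by a difference of -0.97 (adjusted p = 2.36e-05). Centred on cytoplasmic ribosomal proteins, *tko* kept its rise in aly (0.59) and was at -0.29 in Nxt1.

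*mRpS9* encodes the protein whose tail reaches the tRNA in the P site. Its signal was 1111, 1091 and 1149 in control, 1603, 2080 and 1839 in aly, and 2949, 2949 and 2903 in Nxt1. Here the order was the other way round, with Nxt1 highest and again no overlap. The differences from control were 0.71 ± 0.10 in aly and 1.39 ± 0.10 in Nxt1, and Nxt1 exceeded aly by 0.68 (adjusted p = 0.00021). That excess held on every scale tried, although the rise over control in aly did not, being -0.51 relative to cytoplasmic ribosomal proteins. *mRpS2*, named as the member with the dimmest probe set and encoding a protein near the path of the mRNA, also had its highest signals in Nxt1 (913, 976 and 1030), followed by aly (752, 831 and 821) and control (439, 449 and 460).

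The platform and head of the small subunit were represented by further members. For *mRpS11*, a platform protein, the difference was 1.38 in aly and 1.59 in Nxt1. *mRpS11* was called higher in Nxt1 than in aly by 0.21 (adjusted p = 0.0413), but its second probe set gave -0.09 and no call, and the call was lost in 7 of the 9 fits that left out 1 array. *mRpS7*, a head protein, rose by 1.27 in aly and 1.02 in Nxt1. *mRpS5*, which helps to hold the mRNA at its entry, rose by 1.35 ± 0.14 in aly and 0.53 ± 0.14 in Nxt1. Its arrays ranged from 1269 to 1738 in control and from 3248 to 4337 in aly, without overlap.

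*bonsai*, which encodes the S15 protein, rose in both mutants, and no difference between them was called. Its signals were 1293, 1272 and 1162 in control, 3379, 4062 and 3498 in aly, and 3467, 3757 and 3798 in Nxt1. The mutants overlapped each other and lay well above control. The differences were 1.55 ± 0.09 and 1.56 ± 0.09, and the mutants differed by 0.01 ± 0.09 (adjusted p = 0.9026). *CG4866*, listed as mRpS4, rose from 581, 567 and 558 in control to 3531, 3888 and 3768 in aly and 2170, 2355 and 2379 in Nxt1. This was among the 4 largest rises in aly, at 2.71 ± 0.07 (adjusted p = 4.39e-10), against 2.01 in Nxt1.

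Flies have 3 genes for S18 proteins, which moved by different amounts. *mRpS18B*, the member with the brightest probe set, went from 1588, 1456 and 1532 in control to 7428, 7797 and 7833 in aly and 6124, 6814 and 6378 in Nxt1, with differences of 2.33 and 2.08. *mRpS18A*, whose mammalian counterpart lies in the large subunit despite its name, rose by 1.16 and 0.82. *mRpS18C* rose by 0.69 and 0.64. The last of these was below cytoplasmic ribosomal proteins, at -0.52 in aly and -0.49 in Nxt1.

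Among small subunit proteins with no bacterial counterpart, *mRpS26* changed most. Its signal was 978, 977 and 945 in control, 6154, 6642 and 6515 in aly, and 5118, 5172 and 5203 in Nxt1. No array of 1 genotype reached into another. The differences were 2.73 ± 0.07 in aly (adjusted p = 2.23e-10) and 2.42 ± 0.07 in Nxt1 (adjusted p = 1.02e-09). *mRpS29*, the counterpart of the GTP-binding death-associated protein DAP3, rose by 2.32 in aly and 1.74 in Nxt1. *mRpS22* and *mRpS23*, a further pair without bacterial counterparts, parted in the direct comparison. *mRpS22* was lower in Nxt1 than in aly by a difference of -1.01 (adjusted p = 1.66e-05), whereas *mRpS23* was higher by 0.41 (adjusted p = 0.0019).

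The 3 members not called in Nxt1 against control were all from the small subunit, and they were named for this after their values were seen. *mRpS21* gave 3261, 3615 and 3342 in control, 3232, 3059 and 3768 in Nxt1, and 4502, 5760 and 4888 in aly. The control and Nxt1 arrays overlapped, with a difference of -0.03 ± 0.11 (adjusted p = 0.8599), and aly was above both. In aly it rose by 0.56 (adjusted p = 0.0015). *mRpS14*, a head protein, differed by 0.17 ± 0.10 in Nxt1 (adjusted p = 0.1838) and by 0.61 in aly. *mRpS33* differed by 0.20 ± 0.10 in Nxt1 (adjusted p = 0.1104, and 0.0436 without control replicate 3) and by 0.63 in aly. Nxt1 was below aly for all 3, by differences from -0.59 to -0.43.

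**Figure D3:**
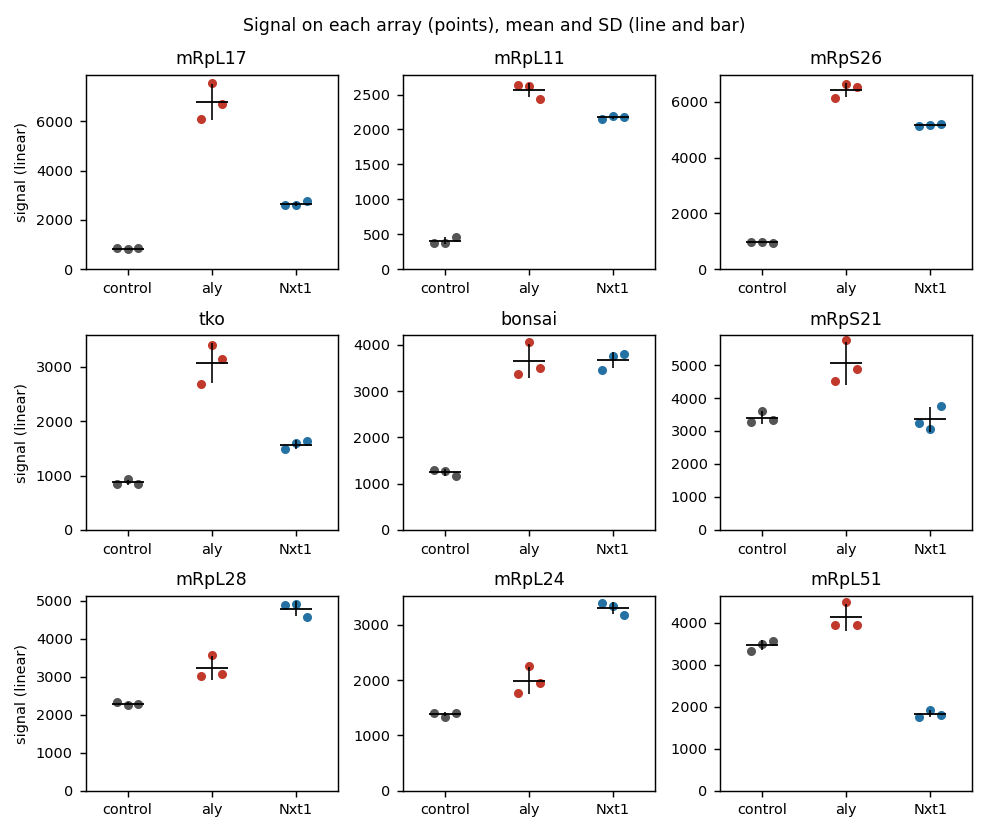
Signal on each array (y axis, deposited units, linear from 0) in control, aly and Nxt1 (x axis, 3 arrays each, bar at the mean) for *mRpL17*, *mRpL11*, *mRpS26*, *tko*, *bonsai*, *mRpS21*, *mRpL28*, *mRpL24* and *mRpL51*. Nxt1 lies between control and aly for *mRpL17* and *tko*, above both for *mRpL28* and *mRpL24*, and below both for *mRpL51*.

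In the large subunit, the stalk and its base bind the translation factors. *mRpL11*, at the base, was among the largest rises in both mutants. The signal of *mRpL11* was 378, 378 and 465 in control, 2634, 2618 and 2443 in aly, and 2148, 2194 and 2179 in Nxt1. Both mutants were far above control, by 2.66 ± 0.09 (adjusted p = 2.35e-09) and 2.42 ± 0.09 (adjusted p = 7.81e-09). The difference between them was -0.24 ± 0.09 and missed the threshold (adjusted p = 0.0501). *mRpL10*, which anchors the stalk, was lower in Nxt1 than in aly by a difference of -0.51, and *mRpL12*, the stalk protein itself, was higher by 0.41 (adjusted p = 0.0023). The arrays of *mRpL12* read 1597, 1572 and 1800 in control, 3510, 3902 and 3662 in aly, and 4875, 5198 and 4672 in Nxt1.

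*mRpL2*, *mRpL3* and *mRpL16* lie close to the peptidyl transferase centre, where amino acids are joined. *mRpL3* rose from 247, 305 and 269 in control to 1570, 1833 and 1570 in aly and 797, 829 and 783 in Nxt1. Its difference was 2.60 ± 0.10 in aly and 1.56 ± 0.10 in Nxt1, and that between the mutants was -1.04 (adjusted p = 1.34e-05). *mRpL2* rose by 1.49 in aly and 0.72 in Nxt1. *mRpL16* rose by 1.07 and 1.20, with the mutants 0.12 ± 0.07 apart and not called.

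Around the exit tunnel the members took different orders in the 3 genotypes. *mRpL17* showed both the largest rise in aly and the largest gap between the mutants. Its arrays read 834, 813 and 842 in control, 6088, 7563 and 6701 in aly, and 2620, 2602 and 2752 in Nxt1. Nxt1 was about midway on the log2 scale, with differences from control of 3.03 ± 0.09 in aly (adjusted p = 6.56e-10) and 1.68 ± 0.09 in Nxt1 (adjusted p = 6.99e-08), and a gap of -1.35 (adjusted p = 8.07e-07). *mRpL24* was the opposite case. Its arrays read 1402, 1340 and 1400 in control, 1772, 2250 and 1942 in aly, and 3392, 3332 and 3177 in Nxt1, so that Nxt1 exceeded aly by 0.74 ± 0.09 (adjusted p = 0.000102). *mRpL24* rose by 0.52 in aly as deposited, but was at -0.70 there relative to cytoplasmic ribosomal proteins.

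Other proteins of the tunnel region fell between these cases. *mRpL22* rose by 1.54 in aly and 2.00 in Nxt1, with Nxt1 higher by 0.46 (adjusted p = 0.000977). *mRpL23* rose by 1.70 and 1.35, with Nxt1 lower by a difference of -0.35. *mRpL47*, the counterpart of bacterial L29, went from 1322, 1280 and 1327 in control to 5422, 6299 and 5668 in aly and 6208, 6289 and 6075 in Nxt1. The mutants overlapped, and *mRpL47* was called between them by neither of its probe sets (0.10 and -0.16), while both gave large rises over control (2.14 and 2.64 in aly, 2.24 and 2.48 in Nxt1). *mRpL45*, which helps to anchor the ribosome to the inner membrane in mammals, rose by 1.18 in aly and 1.33 in Nxt1.

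*mRpL19*, at a bridge between the subunits, rose from 1022, 958 and 975 in control to 5269, 5584 and 5407 in aly and 3908, 4416 and 4328 in Nxt1. The differences were 2.46 and 2.10, among the 4 largest in Nxt1, and Nxt1 was below aly by a difference of -0.36 (adjusted p = 0.0026). *mRpL1*, the mobile stalk at the exit site of the tRNA, rose by 1.82 and 1.79, and the mutants differed by -0.03 ± 0.09 (adjusted p = 0.7802). *mRpL21*, with a bacterial counterpart, was ordered like *mRpL17*, with Nxt1 between control and aly. Its arrays read 851, 901 and 871 in control, 3898, 4504 and 4225 in aly, and 1750, 1907 and 1843 in Nxt1, and Nxt1 was below aly by a difference of -1.20 ± 0.08 (adjusted p = 8.57e-07). *mRpL28*, also of bacterial ancestry, followed *mRpL24* instead. Its arrays read 2326, 2266 and 2283 in control, 3016, 3584 and 3084 in aly, and 4882, 4918 and 4575 in Nxt1, and Nxt1 exceeded aly by 0.57 ± 0.08 (adjusted p = 0.000274).

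Several large subunit proteins resemble enzymes of other pathways. *mRpL44*, which resembles the nuclease RNase III, rose by 1.91 in aly and 1.59 in Nxt1. *mRpL39*, related to threonyl-tRNA synthetase, rose by 2.02 and 1.99, with a difference between the mutants of -0.03 ± 0.11 (adjusted p = 0.8326). *mRpL38*, which holds a phosphatidylethanolamine-binding fold, rose by 1.70 and 1.96. *mRpL41* and *mRpL42*, which have no bacterial counterpart, rose far more in aly (1.87 and 1.37) than in Nxt1 (0.80 and 0.36). Nxt1 was below aly for both, by a difference of -1.07 for *mRpL41* (adjusted p = 5.65e-06) and with adjusted p = 3.5e-05 for *mRpL42*. The rise of *mRpL42* in Nxt1 (adjusted p = 0.0164) was no longer called without control replicate 1 or 2 or without Nxt1 replicate 3.

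*mRpL51*, a large subunit protein with no bacterial counterpart, was the exception among the members. Its arrays read 3333, 3495 and 3564 in control, 3944, 4499 and 3954 in aly, and 1759, 1935 and 1816 in Nxt1. Every Nxt1 array was below every array of the other genotypes. The difference in Nxt1 was -0.92 ± 0.08 (adjusted p = 3.99e-06), and that between Nxt1 and aly was -1.17 ± 0.08 (adjusted p = 1.29e-06). The rise in aly was the smallest of all members, at 0.25 ± 0.08 (adjusted p = 0.0209). It was not called without control replicate 1 (adjusted p = 0.0754) or without aly replicate 2 (adjusted p = 0.0537), and it was -0.97 relative to cytoplasmic ribosomal proteins and -0.88 relative to *CG3927*, so that *mRpL51* was lower in both mutants on those scales.

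The subunits and the 2 evolutionary classes were described by their medians. Subunits were assigned by the L or S of the name alone, so *mRpS18A* counted as small. The large subunit genes had a median of 1.70 in aly and 1.45 in Nxt1, against 1.38 and 1.07 for the small subunit genes. In Nxt1 43 of 44 large and 25 of 28 small subunit genes rose, against 34.1% of all probe sets. Relative to cytoplasmic ribosomal proteins, 24 large subunit genes were higher and 8 lower in Nxt1 (median 0.32), whereas 11 small subunit genes were higher and 12 lower, and their median turned to -0.06. The 25 genes without a bacterial counterpart had medians of 1.83 and 1.53, against 1.49 and 1.20 for the 47 genes with one. Between the mutants the medians were close, at -0.30 for the large subunit, -0.29 for the small, -0.32 without and -0.25 with a counterpart. These differences between classes were not tested.

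Other machinery of mitochondrial gene expression gave a more mixed picture. The counts below stand beside 44.0% of all probe sets called higher and 20.0% lower in aly, and 34.1% and 24.2% in Nxt1. All 9 measured genes of mitochondrial transcription and RNA maintenance rose in both mutants, with medians of 2.00 in aly and 1.61 in Nxt1 on the deposited scale. Relative to cytoplasmic ribosomal proteins, 6 were higher and 2 lower in aly, and 5 higher and 2 lower in Nxt1. *PolrMT*, the mitochondrial RNA polymerase, rose by 1.39 in aly and 2.13 in Nxt1, and *TFAM*, which packages the mitochondrial genome, by 0.55 and 1.18. *mTerf3*, a regulator of mitochondrial transcription, rose by 2.44 and 1.24. Of these rises in aly, those of *PolrMT* and *TFAM* were lost or turned relative to cytoplasmic ribosomal proteins (0.17 and -0.67), whereas that of *mTerf3* remained (1.22). In Nxt1, *mTerf3* (0.11, adjusted p = 0.3138) and *TFAM* (0.05, adjusted p = 0.5762) were no longer called on that scale. Of 3 genes of mitochondrial DNA replication, 2 rose and 1 fell in aly, and 1 rose and 2 were not called in Nxt1.

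Of the 9 translation factors, 6 rose and 3 fell in aly (44.0% and 20.0% of all probe sets). In Nxt1 6 rose and 2 fell (34.1% and 24.2%). *mEFTu1*, an elongation factor that brings tRNAs to the ribosome, gave 876, 873 and 774 in control, 4105, 4728 and 4617 in aly, and 1971, 2180 and 2162 in Nxt1. Its paralog *mEFTu2* ran the other way, with 6711, 6821 and 6403 in control, 634, 800 and 772 in aly, and 2668, 2792 and 2537 in Nxt1. The differences in aly were 2.41 and -3.18, and in Nxt1 1.32 and -1.32. The recycling factors, which release the ribosome after termination, showed the same split, with *mRRF1* at 0.80 in aly and 1.17 in Nxt1 and *mRRF2* at -2.27 and -1.37. *mEFTu2* and *mRRF2* fell on every scale tried, while *mRRF1* was at -0.42 in aly relative to cytoplasmic ribosomal proteins. *mEFG1*, which moves the ribosome along the mRNA, was highest in Nxt1, with a rise of 2.62 against 1.51 in aly.

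Aminoacyl-tRNA synthetases load amino acids onto tRNAs. Of 15 genes listed with those of mitochondria, among them the paralog *Slimp*, 13 rose and 2 fell in aly (median 1.67, against 44.0% and 20.0% of all probe sets). In Nxt1 12 rose and 2 fell (median 0.72, against 34.1% and 24.2%). Those that fell were *CysRS-m*, from 8437, 8310 and 8320 in control to 1576, 1333 and 1461 in aly and 1471, 1353 and 1424 in Nxt1, and *TrpRS-m*, by -0.92 in aly and -1.42 in Nxt1. Both falls held on every scale tried. *Slimp*, a paralog of the seryl enzyme, rose by 2.93 in aly and 1.13 in Nxt1, and *MetRS-m* by 0.38 and 2.28 (in aly -0.84 relative to cytoplasmic ribosomal proteins, where *Slimp* in Nxt1 was no longer called). Relative to cytoplasmic ribosomal proteins the synthetases split into 9 higher and 5 lower in aly and 5 higher and 8 lower in Nxt1.

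Cytoplasmic ribosomal proteins and the respiratory chain served as further lists. Of 41 cytoplasmic ribosomal protein genes, 38 rose and 3 fell in each mutant, with medians of 1.17 in aly and 1.12 in Nxt1. Over all probe sets 44.0% rose and 20.0% fell in aly, and 34.1% and 24.2% in Nxt1. These 41 genes were taken by symbol among those with a probe set of their own, and are not a full list of the cytoplasmic ribosome. Paralogs and genes named as -like were kept, among them *RpL10Aa*, the lowest at -6.55 in aly and -3.91 in Nxt1. Testis paralogs were left out of the respiratory chain list. Of 56 genes for general subunits of the respiratory chain, 50 rose and 2 fell in aly (median 0.89), and 47 rose and 1 fell in Nxt1 (median 0.73). Relative to cytoplasmic ribosomal proteins most of the respiratory chain genes were lower (33 of 56 in aly, 42 of 56 in Nxt1), with medians of -0.33 and -0.40. The members kept medians above 0 on that scale, as given above. Between the mutants 22 respiratory chain genes were lower and 2 higher in Nxt1, and 9 cytoplasmic ribosomal protein genes were lower and 4 higher, where 38.5% of all probe sets were lower and 20.6% higher. Both directions turned when the arrays were centred on *CG3927*. There 29 respiratory chain genes were higher and 4 lower, and 29 cytoplasmic ribosomal protein genes were higher and 1 lower. On that scale 37.1% of all probe sets were higher and 13.4% lower.

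**Figure D4:**
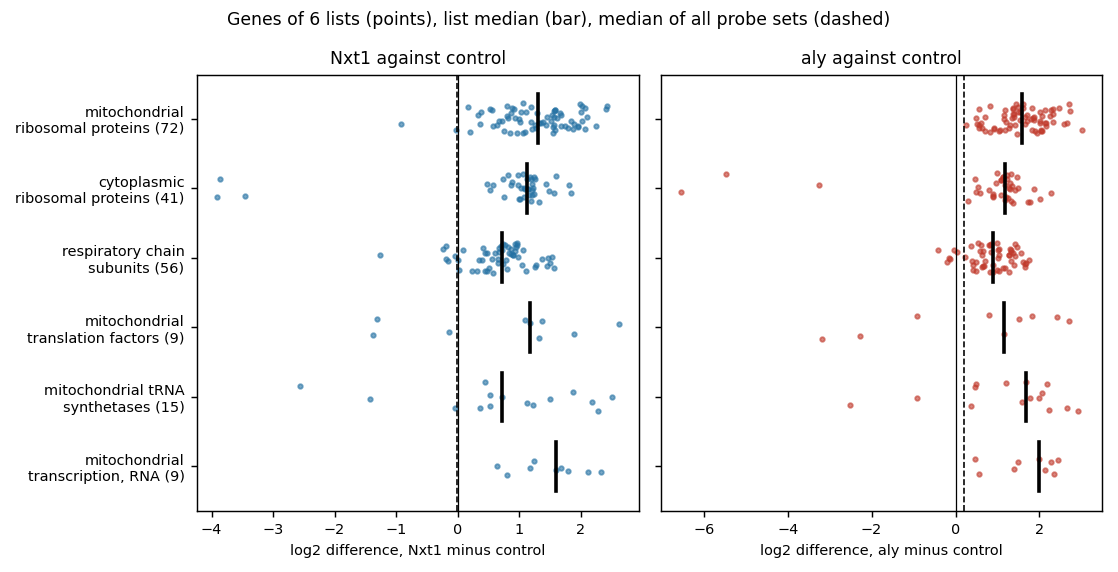
Log2 difference from control (x axis) in aly and in Nxt1 for each gene of 6 lists (y axis: the members, cytoplasmic ribosomal proteins, respiratory chain subunits, and mitochondrial translation factors, tRNA synthetases and transcription genes; 1 point per gene, bar at the list median, dashed line at the median of all probe sets; the x axes of the panels differ). On the deposited scale the members have medians of 1.58 and 1.31, and the translation factors and synthetases hold genes on both sides of 0.

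Some markers of other cells also differed between the genotypes on the deposited scale, and their part in the members' differences was not tested. Over all probe sets 44.0% rose and 20.0% fell in aly, and 34.1% rose and 24.2% fell in Nxt1. Of 16 comet and cup genes, which are transcribed in spermatids, 16 fell in aly and 15 in Nxt1, and their summed signal was 91756 to 94054 in control, 15861 to 17024 in aly and 18835 to 20466 in Nxt1. Of 9 early germline markers, 5 rose and 3 fell in aly and 4 rose and 3 fell in Nxt1, with sums of 4321 to 4945 in control, 7228 to 7492 in aly and 7160 to 7228 in Nxt1. Of 7 hub and cyst cell markers, 1 rose and 2 fell in aly and 2 rose and 4 fell in Nxt1, with sums of 1594 to 1631, 1176 to 1367 and 1294 to 1385, and *upd1* read at most 53.8 on any array. Of 8 muscle markers, 4 rose and 2 fell in aly and 3 rose and 1 fell in Nxt1, with sums of 5854 to 6039, 6219 to 7117 and 4905 to 7266.

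Markers of tissues next to the testis differed between single arrays as well. The 13 accessory gland markers summed to 1308 in control replicate 1 and to 25726 and 35367 in the other control arrays, against 49090 to 110038 in aly and 55899 to 150146 in Nxt1. Of these markers 5 rose in aly (44.0% of all probe sets) and 7 in Nxt1 (34.1%), and the rest were not called. The 7 fat body markers summed to 4776 to 5059 in control, 6594 to 8583 in aly and 1109 to 2590 in Nxt1, and 3 of them rose and 1 fell in aly, while 1 fell and 6 were not called in Nxt1. The one that fell in both was *apolpp*. The share of fat body markers that rose in aly, 42.9%, was near that of all probe sets (44.0%). In the same 3 control arrays the summed signal of the members was between 81240 and 82143. Without control replicate 1, 67 members were higher and 1 lower in Nxt1 and 71 higher in aly. Every mutant array still summed higher for accessory gland markers than every control array. The part of these tissues in the members' differences was not tested.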

How the data were processed

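Total RNA of hand-dissected testes was hybridised to Affymetrix arrays of the Drosophila genome. The authors deposited 1 table of signal intensity for the 9 arrays, and the submitters' processing notes name GCOS and RMA, without versions. The intensity values are linear, so log2 was taken with nothing added. RMA sets all arrays to 1 distribution of intensities, which can shift a gene when many others change.

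Of 18952 probe sets, 183 controls were left out. Genes were named from the platform annotation (13646 probe sets with 1 symbol, 402 with several, 4721 with none), and 13543 were matched by gene ID to the reference table. Only probe sets with 1 symbol were used, and the one with the highest mean log2 value stood for its gene. No column of the table lacked a sample (0 others). No sequence was used, and promoter motifs were not searched.

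All 9 arrays entered 1 fit (limma 3.58.1, R 4.3.3, lmFit and eBayes, 1 mean per genotype), with Benjamini-Hochberg adjustment over 18769 probe sets. The steps were also run on simulated data with independent noise and few changed probe sets. That run cannot test the calls where many probe sets change, as they do here. Array data hold no read depth, and 3 arrays per genotype limit the precision. Differences in brightness between probe sets served only to choose probe sets and named members. Members, lists and alternatives were chosen with earlier results of these data known. Named members were *tko* and *bonsai*, the 4 largest called differences without overlap in each direction for each mutant against control, the 3 largest between the mutants, those called in opposite directions, and the brightest and dimmest. A further 27 were named after their values were seen, for their place in the ribosome or because they were not called, as were single genes of the other lists. Classes with a bacterial counterpart were L1 to L36 and S1 to S21 with S24, S28, L47 and L55. Alternatives were 3 other scalings, a filter on dim probe sets, the replicate number as a block, trend and robust eBayes, gene means over probe sets, ratios of linear means, members by symbol alone, and leaving out each array.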

Additional observations from a re-analysis of the deposited data

Results flagged for a closer look

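*mRpL51* was called in opposite directions in the mutants against control, and the mutants differed from each other by -1.17 on the log2 scale (Nxt1 minus aly, limma adjusted p = 1.29e-06). The call in aly was lost without control replicate 1 or aly replicate 2, and both mutants were below control when the arrays were centred on cytoplasmic ribosomal proteins or *CG3927*, whereas the difference between the mutants had the same sign on every scale tried.

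A probe set annotated to *mRpL53* together with *CG33155* stood outside the 72 members. Its log2 difference from control was 1.31 in Nxt1 (limma adjusted p = 6.68e-07) and 1.73 in aly (adjusted p = 5.72e-08), with every mutant array above every control array. It cannot be told which of the genes gave this signal. The probe set annotated to *mRpS10* together with *CG34316* differed by -0.03 in Nxt1 (adjusted p = 0.7843) and 0.13 in aly (adjusted p = 0.1343).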

How the results depend on the processing

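The filter on dim probe sets, trend and robust eBayes, gene means over probe sets, ratios of linear means and members by symbol alone left every count and median of the members within 1.5 times or within the spread between arrays. Whether replicate numbers pair the arrays could not be told. Same-numbered arrays of different genotypes had correlations of deviations from -0.23 to 0.35, and different-numbered ones from -0.35 to 0.28. With the replicate number as a block, 68 members were higher and 1 lower in Nxt1, 72 higher in aly, and 9 higher and 41 lower in Nxt1 than in aly, where *mRpS11* was lost (adjusted p = 0.0715).

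Leaving out each array in turn gave 67 to 69 members higher and 1 lower in Nxt1, 71 to 72 higher and 0 lower in aly (0 at an unadjusted p as well, since every fitted difference was above 0), and 7 to 12 higher and 36 to 44 lower in Nxt1 than in aly. The medians were 1.29 to 1.34, 1.51 to 1.62 and -0.35 to -0.26. Changes of single genes are given below for the named members only. Near 0 some signs turned, with ranges of -0.038 to 0.095 for *bonsai*, -0.11 to 0.028 for *mRpL1* and -0.13 to 0.037 for *mRpL39* between the mutants, and -0.11 to 0.036 for *mRpS21* in Nxt1 against control. *mRpL11* was called between the mutants without control replicate 3 and under the filter, trend and gene means, and *mRpL45* without aly replicate 2, while *mRpL38*, *mRpS2*, *mRpS7* and *mRpS18B* were each lost without 1 or more arrays, and *mRpS11* was lost in 7 of 9 such fits (adjusted p from 0.0552 to 0.1534), by gene means and centred on all probe sets.

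Scale mattered most. Centred on cytoplasmic ribosomal proteins, the members' counts were 35 higher and 20 lower in Nxt1 (median 0.18) and 44 higher and 15 lower in aly (median 0.36). The sign changes that follow are listed for the named members only, and other members turned too. For *mRpS17* the deposited rises of 0.34 (Nxt1) and 0.555 (aly) were below the shifts of 1.13 and 1.22. Against control the sign turned in Nxt1 for *mRpL2* (-0.41), *mRpL21* (-0.060), *mRpL28* (-0.065), *mRpL36* (-0.20), *mRpL41* (-0.33), *mRpL42* (-0.77), *mRpS14* (-0.96), *mRpS18A* (-0.31), *mRpS18C* (-0.49), *mRpS2* (-0.014), *mRpS22* (-0.75), *mRpS33* (-0.92), *mRpS5* (-0.60), *mRpS7* (-0.11) and *tko* (-0.29). It turned in aly for *mRpL12* (-0.062), *mRpL16* (-0.15), *mRpL24* (-0.70), *mRpL28* (-0.73), *mRpL45* (-0.044), *mRpL51* (-0.97), *mRpS14* (-0.61), *mRpS18A* (-0.061), *mRpS18C* (-0.52), *mRpS2* (-0.38), *mRpS21* (-0.66), *mRpS33* (-0.59) and *mRpS9* (-0.51). Between the mutants it turned for *mRpL1* (0.0605), *mRpL39* (0.062) and *mRpS18C* (0.038).

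Centred on *CG3927*, a single gene, 8 members were lower in Nxt1 (median 0.53), 13 in aly (median 0.44), and 27 higher and 24 lower in Nxt1 than in aly (median 0.066). Between the mutants 37.1% of all probe sets were higher and 13.4% lower on that scale, with a median of 0.18. The sign changes in this paragraph are again those of the named members only. The sign turned in Nxt1 for *mRpL2* (-0.060), *mRpL42* (-0.41), *mRpS14* (-0.61), *mRpS18C* (-0.13), *mRpS22* (-0.40), *mRpS33* (-0.57) and *mRpS5* (-0.24). It turned in aly for *mRpL16* (-0.064), *mRpL24* (-0.62), *mRpL28* (-0.65), *mRpL51* (-0.88), *mRpS14* (-0.52), *mRpS18C* (-0.44), *mRpS2* (-0.30), *mRpS21* (-0.57), *mRpS33* (-0.50) and *mRpS9* (-0.42). Between the mutants it turned for *mRpL1* (0.33), *mRpL11* (0.12), *mRpL23* (0.0078), *mRpL39* (0.33), *mRpL44* (0.043), *mRpS18A* (0.022), *mRpS18B* (0.11), *mRpS18C* (0.31), *mRpS26* (0.045) and *mRpS7* (0.11). Centred on all probe sets, the medians were 1.70 in aly and -0.43 between the mutants, where *bonsai* (-0.12), *mRpL16* (-0.0074) and *mRpL47* (-0.034, and -0.030 by gene means) turned. The causes of these shifts beyond the centring itself were not tested.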
